A study of Homo sapiens with 6 samples.

Results

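SLCO4A1 encodes an organic anion transporting polypeptide (OATP4A1). In HepG2 cells its methylation was described from 3 deposited lists of differentially methylated regions. The rows were chosen by position, as all rows that overlap chromosome 20: 62640000-62687000 on hg38, the gene and its upstream edge. That gene had itself been selected on the differences shown by these same lists. The levels below are therefore a description, and no test was run on them. The rule took 13 rows of 4344 in all: 4 of 1483 in pair 1, 4 of 1433 in pair 2 and 5 of 1428 in pair 3.

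HepG2 is an established human hepatocellular carcinoma line. The control group was HepG2 with a control lentivirus, labelled WT for genotype, and the other group was HepG2 with a lentivirus for DNMT3A overexpression. Each group had 3 libraries of reduced representation bisulfite sequencing (RRBS), in which MspI cuts at CCGG and CpG-rich fragments are read after bisulfite treatment. Each list compares an overexpressing library with the control that bears the same number, here called a pair. Both groups carry a lentivirus. The sources used here do not say whether the lines are pools or single clones, how strongly DNMT3A was expressed, or whether libraries came from separate cultures, so the spread between libraries may be technical. Called regions hold no expression values, so the identity of the cells was not checked against marker genes.

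OATP4A1 is a membrane transporter that works without sodium and carries thyroid hormones, conjugated steroids and other organic anions into cells. It belongs to the family that also holds the bile acid and drug uptake carriers of hepatocytes, but it is made in many tissues and has been studied in tumours. DNMT3A adds methyl groups to unmethylated CpG sites. Methylation at gene starts often goes with silencing, whereas methylation inside transcribed genes is common.

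The 13 rows fell into 4 distinct regions once overlapping rows were joined, and 3 of these were listed in all pairs. The gene spans chromosome 20: 62642503-62690740 in RefSeq. The upstream region, at 62641942-62642021, ended 482 bp before the gene, inside the noncoding gene LOC124904949 (62637645-62642337). Inner region 1, at 62652186-62652983, began 9683 bp inside SLCO4A1 on the last base of the noncoding gene SLCO4A1-AS2 (62648961-62652186). It is a single region only because the row of pair 1 bridges stretches that pairs 2 and 3 listed 178 and 177 bp apart. Inner region 2, at 62666732-62667048, began 24229 bp inside SLCO4A1. SLCO4A1-AS1 (62663027-62666621), a noncoding gene read from the minus strand, starts 111 bp from it. Inner region 2 thus covered 111 to 427 bp upstream of that start. The fourth region was a single row of pair 1 at 62640051-62641811, with 5 sites over 1761 bp. Exons and introns were not analysed here. The gene table gives no strand for SLCO4A1. Because SLCO4A1-AS1, named as its antisense, lies on the minus strand, the lower-coordinate end was taken as the start of SLCO4A1.

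**Figure D1:**
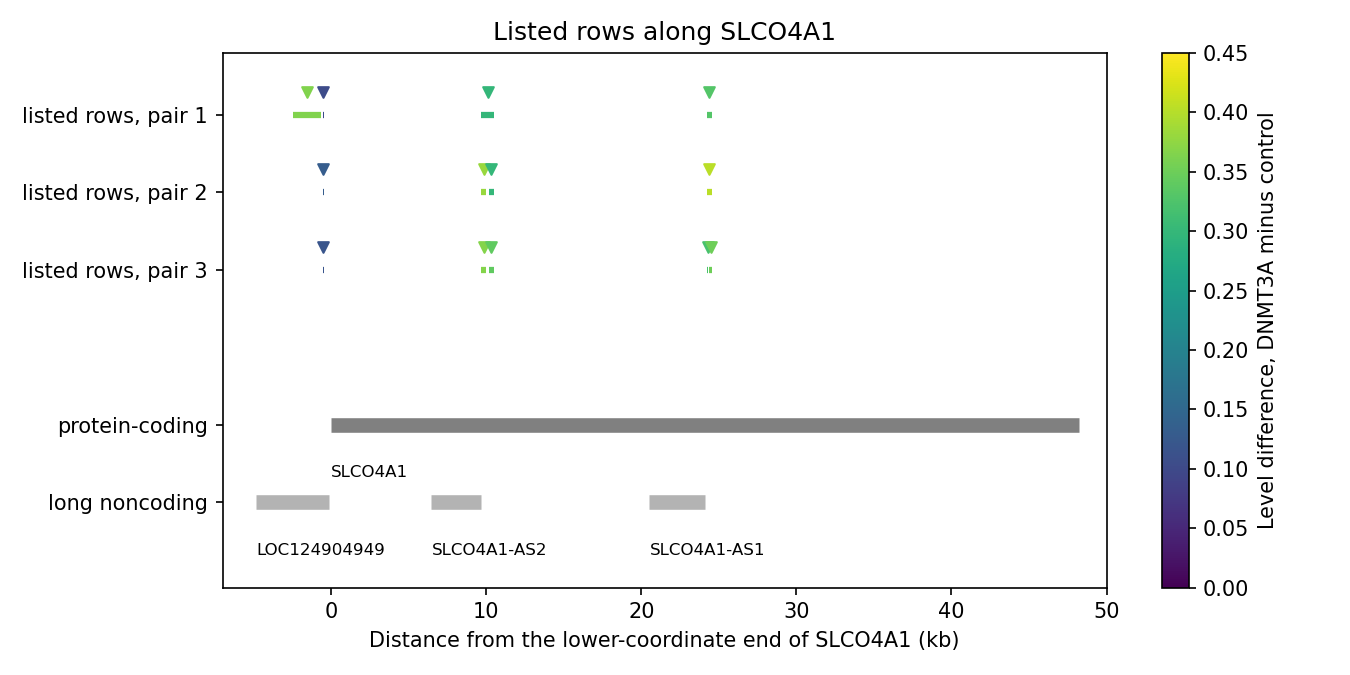
Listed rows of each pair along SLCO4A1, drawn by distance in kb from the lower-coordinate end of the gene; coloured bars are rows with their lengths to scale, triangles mark their centres, colour is the level difference (DNMT3A minus control), and grey bars are RefSeq genes. The same 3 places were listed in every pair, and no row lay in the last 23692 bp of the gene.

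The sequence around the SLCO4A1-AS1 start is shown because inner region 2 reaches into the RefSeq window there, though not to the start itself. The first line below is the RefSeq window of 300 bases around that start, chr20:62666572-62666871 on GRCh38.p14, minus strand, 5′ to 3′, with the 140 bases that lie in inner region 2 in capitals. The second is the shorter row of pair 3, chr20:62666745-62666805 on the same strand, with every CpG position that the row holds in capitals.
SLCO4A1-AS1 start: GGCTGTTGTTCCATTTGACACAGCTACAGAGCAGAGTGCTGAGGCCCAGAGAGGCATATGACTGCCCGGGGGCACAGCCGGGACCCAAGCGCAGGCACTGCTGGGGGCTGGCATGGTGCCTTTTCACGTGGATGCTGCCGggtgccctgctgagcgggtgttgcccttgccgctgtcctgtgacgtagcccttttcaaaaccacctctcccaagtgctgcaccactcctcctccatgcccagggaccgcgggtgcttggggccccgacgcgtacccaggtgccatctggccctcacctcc
Row of pair 3: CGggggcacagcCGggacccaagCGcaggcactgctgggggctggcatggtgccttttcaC

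These letters show what the lists count as a site. The 61-base row holds 7 capitals, counting C and G positions of CpGs on both strands, and the deposited list gives it 7 CpG sites. Its last capital belongs to a CpG whose other position lies outside the row. Across the lists, 117 rows lay wholly inside a RefSeq window of this kind. In 113 of them the listed sites outnumbered the CpGs of the sequence, and in 0 did they exceed the CpG positions of both strands, while 75 matched the latter exactly. Listed sites are thus cytosines of either strand, and a listed site number can be up to 2 per CpG.

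The SLCO4A1-AS1 window holds 13 CpGs, close to the median of 14 over 34943 RefSeq windows (interquartile range 4 to 28). Of these, 5 lie inside inner region 2 and give 10 of the 22 sites listed there in pairs 1 and 2. The remaining 8 lie nearer the start and in no listed row, which shows only that no row was called there. The MspI motif CCGG, the same on both strands, occurs 3 times in the window, against 33.5% of windows with 3 or more and 63.1% with at least 1. The lower-coordinate boundary of inner region 2 falls within the CCGG nearest the SLCO4A1-AS1 start.

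Methylation was higher in the overexpressing library in all 13 rows, with differences of 0.103 to 0.404 on the fraction scale from 0 to 1. Over all rows, 82.1% were higher in pair 1, 81.7% in pair 2 and 81.1% in pair 3. The rule used this contrast, so nothing is read from 13 of 13. Averaged over the rows of a pair with sites as weights, the difference was 0.287, 0.312 and 0.314 in pairs 1, 2 and 3, a mean of 0.304 ± 0.0149 (SD, n = 3 pairs). Of 3313 distinct regions in the 3 lists, 7.97% were higher in all pairs, as were 3 of the 4 at SLCO4A1. Nothing is read from 3 of 4 either, since the gene was selected on these lists. Row lengths and site densities at SLCO4A1 differed by region. The median row length was 557, 305 and 168 bp in pairs 1, 2 and 3, against 102, 105 and 102 bp over all higher rows, and the median site density was 7.42, 8.52 and 11.0 per 100 bp, against 10.8, 10.7 and 10.9. The upstream region had short, dense rows of 58 to 80 bp with 17.5 to 19.0 sites per 100 bp, whereas the rows of inner region 1 spanned 293 to 797 bp.

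Inner region 1 held the most sites, 63 in pair 1, 46 in pair 2 and 50 in pair 3. Its level was 0.216, 0.201 and 0.212 in control libraries 1, 2 and 3, and 0.515, 0.523 and 0.560 in the overexpressing libraries. The groups did not overlap, as at 98.5% of the 264 regions higher in all pairs. Within each group the averages of the 3 libraries lay close together. The mean went from 0.210 ± 0.00787 to 0.533 ± 0.0238 (SD, n = 3 each), a difference of 0.323 ± 0.0247 (SD, n = 3 pairs). The control SD was below the median of 0.0216 over the 264 regions higher in all pairs. That SD compares averages over unlike sites, since the rows of pairs 2 and 3 leave out a stretch that the pair 1 row spans. The difference was above the median of 0.280 over these regions (interquartile range 0.227 to 0.327). By mean number of sites it ranked 15 of those 264. The pair 1 row had the area statistic of rank 17 among 1483, a score deposited for each row. The separate rows of this region ranked 410 and 61 of 1433 in pair 2, and 376 and 46 of 1428 in pair 3.

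Inside that region, pairs 2 and 3 each gave a pair of rows that differed in their starting level. The part next to SLCO4A1-AS2 was nearly unmethylated in the controls. In pair 2 it went from 0.0643 to 0.446, and in pair 3 from 0.0758 to 0.443. The part further into the gene, at 62652657-62652983, started higher and also ended higher. It went from 0.255 to 0.554 in pair 2 and from 0.265 to 0.605 in pair 3. The control level of the second part thus exceeded that of the first by 0.191 and 0.189, while the difference between groups was smaller there, by -0.0821 and -0.0264. Between them lay 178 and 177 bp in no row of these pairs. Pair 1 listed the whole stretch as 1 row of 797 bp, so its parts cannot be compared there.

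Inner region 2, upstream of SLCO4A1-AS1, had the largest mean difference of the 3 and the widest spread. Its level was 0.0699, 0.182 and 0.126 in control libraries 1, 2 and 3, and 0.399, 0.586 and 0.465 in the overexpressing libraries. The lowest overexpressing library lay 0.217 above the highest control, and pair 2 was highest and pair 1 lowest in both groups. The mean went from 0.126 ± 0.0561 to 0.483 ± 0.0949 (SD, n = 3 each), a difference of 0.357 ± 0.0407 (SD, n = 3 pairs). Its SD ranked 34 of 264 among controls and 17 of 264 among overexpressing libraries, counted from the largest. Pair 3 listed it as separate rows, with 7 and 11 sites against 22 for the single row of the other pairs. Pairs 1 and 2, whose rows have the same boundaries, hold the lowest and the highest level of both groups, so the range of each group is the same without pair 3. The rows of pair 3 were alike: the 61-base row printed above stood at 0.151 and 0.471, and the other, at 62666881-62667048, at 0.109 and 0.461.

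**Figure D2:**
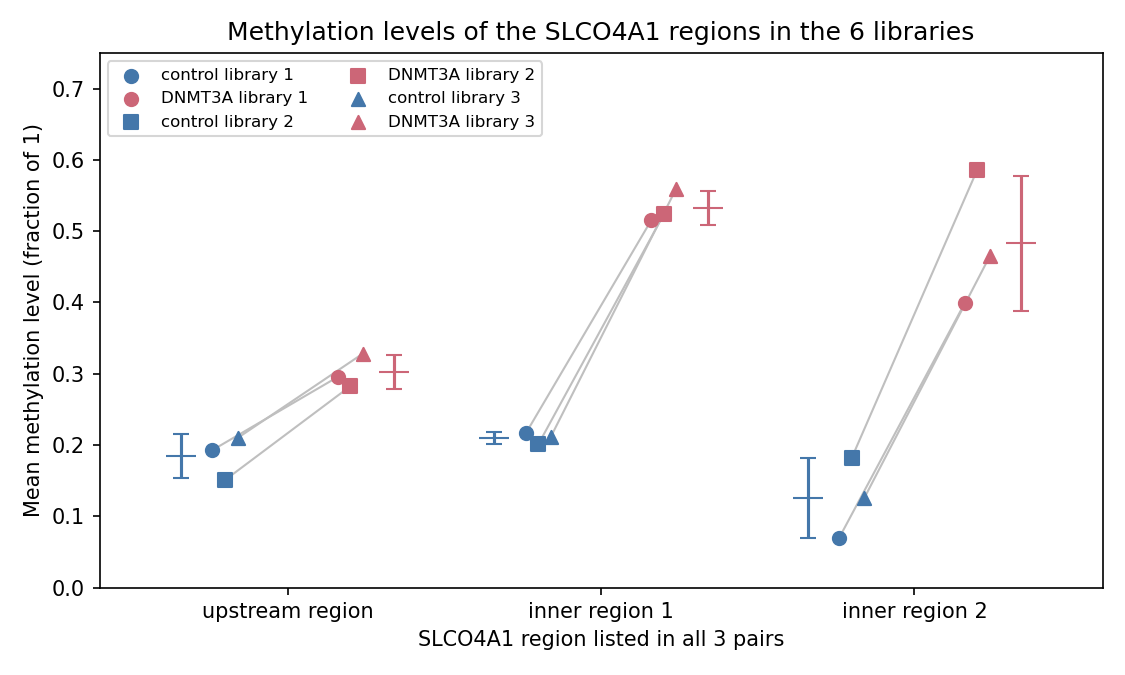
Mean methylation level (fraction, y axis) of the 3 SLCO4A1 regions listed in all pairs, in each control library (blue) and each DNMT3A overexpressing library (red); symbols give the library number, grey lines join a pair, and the bars beside the points are mean ± SD of 3 libraries. Every red point lies above every blue point of its region, as at 98.5% of the regions higher in all pairs. The upstream region has the smallest difference.

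The upstream region, before the start of the gene, differed least between the groups. Its level was 0.193, 0.151 and 0.210 in control libraries 1, 2 and 3, and 0.296, 0.283 and 0.328 in the overexpressing libraries. As at 98.5% of the regions higher in all pairs, the groups did not overlap. The gap between them was 0.0728, against 0.299 at inner region 1. The mean went from 0.184 ± 0.0304 to 0.302 ± 0.0236 (SD, n = 3 each), a difference of 0.118 ± 0.0146 (SD, n = 3 pairs), which ranked 256 of the 264 regions higher in all pairs. Within its own pair this row was in the lowest 3.86, 7.34 and 6.04 percent of higher rows by difference, in pairs 1, 2 and 3. Those are all higher rows of a pair, and rows of a like control level were not compared separately. Because a row appears only when called, smaller differences near the gene start would not be seen.

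Relative to what was still unmethylated, the inner regions were alike and the upstream one was not. The difference divided by the unmethylated share of the controls was 40.9% at inner region 1 (38.1%, 40.4% and 44.2% in pairs 1, 2 and 3). It was likewise 40.9% at inner region 2 (35.4%, 49.4% and 38.8%), and 14.4% at the upstream region (12.7%, 15.5% and 15.0%). The median over the 264 regions was 35.5% (interquartile range 26.5% to 44.2%). In the overexpressing libraries the upstream region was below both inner regions in each library, while the inner regions overlapped. In each control library both the upstream region and inner region 2 lay below inner region 1, the upstream region by as little as 0.210 against 0.212 in library 3.

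The sparse row of pair 1 had a control level of 0.138 and an overexpressing level of 0.502. It had 0.284 sites per 100 bp, where the median of that list's higher rows was 10.8 and 0.247% of them were sparser. It ended 692 bp before the gene and rests on 1 pair. At the other edge of the window nothing was listed between inner region 2 and the end of SLCO4A1, which runs 3740 bp past the window. The nearest rows outside were at 62635852-62636170 in the noncoding gene LOC124904948 (0.215 and 0.628, pair 1) and at 62759732-62759820 in NTSR1 (0.133 and 0.345, pair 2).

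**Figure D3:**
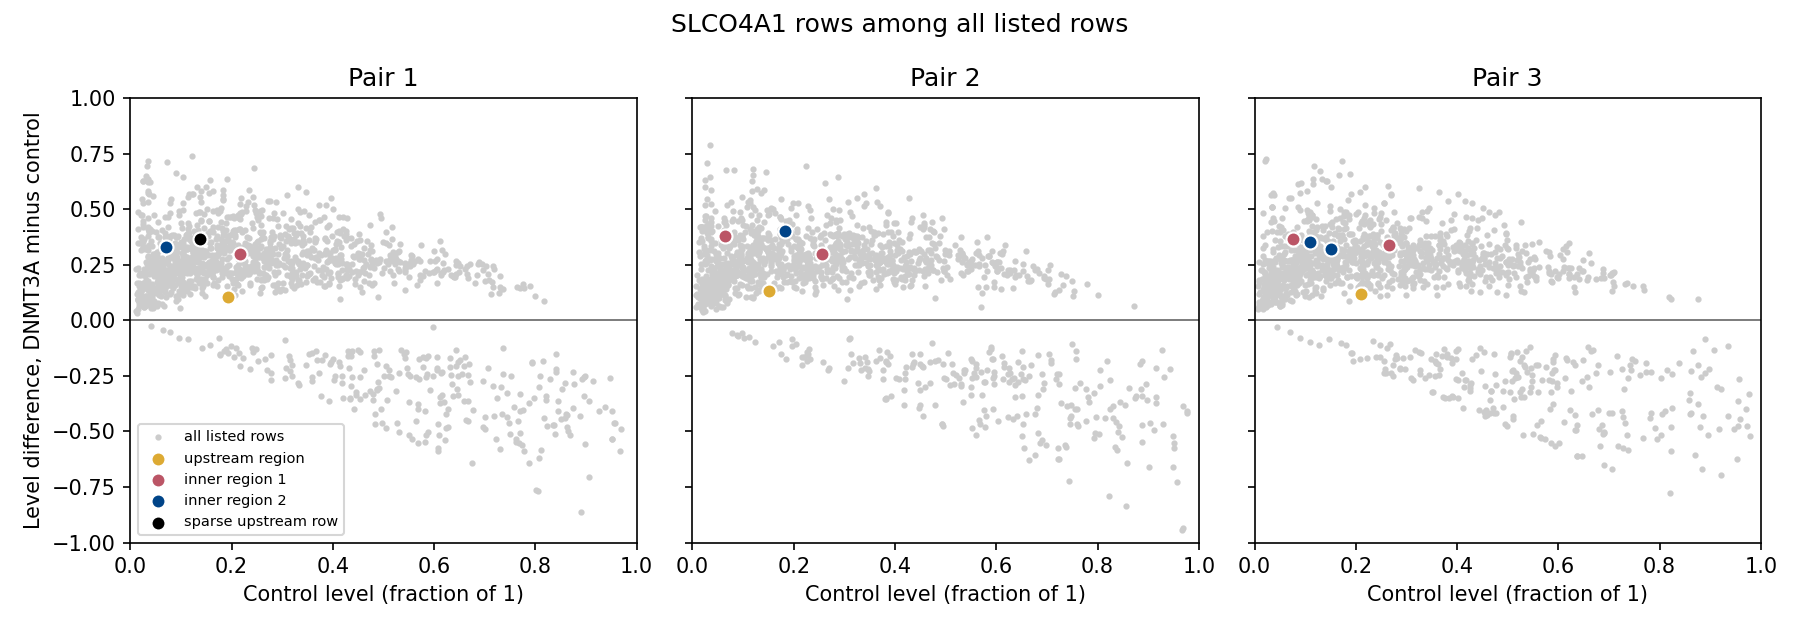
Control level (x axis, fraction) against level difference (y axis, DNMT3A minus control) for every listed row of each pair (grey) and for the SLCO4A1 rows (coloured by region). All 13 coloured points lie above 0, and the upstream region lies near the lower edge of the grey rows above 0 in each pair.

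SLCO4A1 was 1 of few genes with several regions listed in every pair. The gene was selected on these same lists, so its place among genes is only a description. Of 38386 protein-coding and long noncoding genes, 2354 (6.13%) had a listed region inside or within 1 kb, with a median of 1, and 245 (0.638%) had one that was higher in all pairs. SLCO4A1 had 4, and 37 genes had more. Only 7 genes had 3 or more regions higher in all pairs: GNG7 with 6, CACNA1H with 5, and BCL11B, BCOR, EPHA2, NFIX and SLCO4A1 with 3 each; the other 6 were named after their counts were seen. Per 10 kb of gene these came to 0.622 in SLCO4A1, against 0.945 in EPHA2, 0.728 in CACNA1H and 0.238 in BCOR. The SLCO4A1 count of 3 includes the upstream region, and the count of 4 includes that region and the sparse row of pair 1. Both lie outside the gene. These counts also take inner region 1 as a single region, which rests on the joining row of pair 1. Counted inside the gene only, SLCO4A1 has 2 regions, both higher in all pairs (0.415 per 10 kb), 127 genes have more regions, and the other 6 genes still have 3 or more higher in all pairs.

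Regions whose levels were most like inner region 1 were found by the mean absolute difference over the 6 libraries, among the 271 other regions listed in all pairs. The level of a region can rest on different sites in different pairs, as at inner region 1. The closest within a gene was in OSBPL2, an oxysterol-binding protein gene on the same chromosome (62247086-62247189), 393 kb from the window, at a mean absolute difference of 0.0194. It went from 0.215 ± 0.0186 to 0.524 ± 0.0246 (SD, n = 3 each). PRKAR1B, a regulatory subunit gene of protein kinase A, followed at 0.0235, then CLEC16A at 0.0248, MAPK6, the gene of an atypical MAP kinase, at 0.0253 and CRTC1, a CREB coactivator gene, at 0.0253. The median over the 271 regions was 0.120. The other SLCO4A1 regions ranked 87 (inner region 2, 0.0876) and 143 (upstream region, 0.128) of 271.

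Other OATP genes had no listed row. Of 11 named, 10 matched the RefSeq table: SLCO1B1 and SLCO1B3, the hepatocyte uptake carriers, SLCO2A1, a prostaglandin carrier, SLCO1C1, a thyroxine carrier of the brain, and SLCO1A2, SLCO2B1, SLCO3A1, SLCO4C1, SLCO5A1 and SLCO6A1. Since 6.13% of all genes had a listed region, 0 of 10 is no result about the family. The absence of a row says only that none was called, and coverage is unknown. The RefSeq start windows of 6 of these genes, 9 windows in all, held 0 to 41 CpGs with a median of 2, and 4 held a CCGG. SLCO3A1 and SLCO4C1 had the CpG-rich ones.

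Among 4 other thyroid hormone transporters, SLC7A5, a large neutral amino acid carrier that also takes up thyroid hormones, had listed rows. That is 1 of 4 genes, against 6.13% of protein-coding and long noncoding genes together, and 1 gene is no result about the list. All 8 rows were higher, as were 81.1% to 82.1% of all rows of a list, 3 in pair 1 and 5 in pair 2, with control levels of 0.0189 to 0.177 and differences of 0.0577 to 0.322. No row of 1 pair overlapped a row of the other, and pair 3 listed none. SLC16A10, SLC7A8 and SLC10A1 had no row. Among 9 genes of thyroid hormone carriage, conversion and response, THRA, the thyroid hormone receptor alpha gene, had 1 region, at chromosome 17: 40072285-40072573, higher in all pairs. That is 1 of 9 genes, against 0.638% of protein-coding and long noncoding genes together, and again 1 gene is no result about the list. Its level was 0.0908, 0.0509 and 0.101 in control libraries 1, 2 and 3, and 0.425, 0.307 and 0.390 in the overexpressing libraries. These levels rest on unlike stretches: 21 sites over the whole region in pair 1, 5 sites at 40072285-40072355 in pair 2, and 19 at 40072331-40072573 in pair 3. The groups did not overlap, as at 98.5% of the regions higher in all pairs. The difference was 0.293 ± 0.0392 (SD, n = 3 pairs). THRB, DIO1, DIO2, DIO3, TTR, SERPINA7, THRSP and CRYM had no row.

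Around SLCO4A1, 29 other genes of the RefSeq table lay within 250 kb of the window, and 6 rows were listed in 3 of them. Of the 23 that are protein-coding or long noncoding genes 3 had a listed region within 1 kb, against 6.13% of all such genes. These were LOC124904948 and NTSR1, given above, and COL9A3, a collagen gene with 4 rows at differences of 0.125 to 0.307. Their names were picked after the values were seen. All 6 were higher, each in 1 pair only, so none of these neighbours had a region repeated between pairs. Without pair 1 there were 3 rows. On chromosome 20 as a whole, 83.3%, 91.7% and 85.4% of rows were higher in pairs 1, 2 and 3.

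Mapped reads ranged from 25.8 to 29.9 M (mega-reads) in the overexpressing and from 26.9 to 29.3 M in the control libraries, and the mapping rate from 76.25% to 76.88% and from 75.96% to 76.20%. The lists give no reads per region, so the depth behind each level is unknown and no counting interval is given.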

How the data were processed

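Coordinates are hg38, per the submitters' processing notes. The sources used here name no aligner, region caller, thresholds or conversion rate. For each region the authors gave, per the file headers, the mean level of methylation in its control and its overexpressing library (a fraction), a count of CpG sites, the length, the signed difference and an area score. The deposited difference equalled the computed one within 1e-12. Total and mapped read counts and the mapping rate and cutting efficiency in percent are the authors' values, per the file headers.

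Rows were joined where they overlapped by at least 1 bp, and a pair's rows were averaged with sites as weights (Python 3.11.15, pandas 2.3.3). The level of a joined region can therefore rest on different sites in each pair. The joining step was tested on simulated data with at most 1 row per pair and region. Split rows like those at inner regions 1 and 2 were not simulated. Genes and start windows came from RefSeq tables of GRCh38.p14. SLCO1B7 had no match in the gene table, and SLCO4A1, SLCO4A1-AS2 and LOC124904949 had none among the windows. The members and lists were chosen with earlier results of these data known. The naming rule took SLCO4A1 and overlapping genes, list members with a row, neighbours with a region in at least 2 pairs, and the 5 most alike genes. List members without a row, the neighbours LOC124904948, NTSR1 and COL9A3, and the genes with 3 or more shared regions are named beside it, the last 2 kinds after their values were seen. One planned list member is not reported here. No p-value was computed. Every level column was mapped to a library by its name and number.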

Additional observations from a re-analysis of the deposited data

How the results depend on the processing

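Of 39 alternative values, 36 stayed within the spread between pairs or within 1.5 times of the count, 3 moved and 0 changed direction. The number of distinct SLCO4A1 regions stayed at 4 without pair 1, but as a different set. The sparse row dropped out, and inner region 1 came apart where no row of the other pairs bridges it. Counted inside the gene extent only, SLCO4A1 ranked 128 among genes by distinct listed regions, against 38 within 1 kb. Rows near SLCO4A1 numbered 15 within 500 kb, all higher, against 6 within 250 kb, and leaving out 1 pair gave 3 to 5; the 500 kb limit and the pairs left out there were added after seeing the data. Without the pair of each number in turn, the mean differences of the 3 SLCO4A1 regions moved by less than their SD. No test was run, with or without the replicate number as a block; the printed differences and their SDs are within pairs. The lists hold called rows without depth, so no coverage minimum could be applied.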
